A study of Homo sapiens with 24 samples.

Results

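DNA replication and G1/S genes form a set of 49 genes that act from origin licensing to DNA synthesis, or that govern entry into S phase. The members were chosen by symbol and from function, but with earlier results of these data known. All 49 were found in every table, among 22227 genes in the tables of the ligand experiment and 23028 in those of the siRNA experiment, and all 49 passed the filters on low values, which left 15555 and 20369 genes for testing. By role they comprised 11 licensing genes, 8 genes of helicase assembly and origin firing, 6 of the sliding clamp and its loader, 8 of the polymerases and primase, 5 of flap processing, nick sealing and single-strand binding, 4 of nucleotide supply and 7 regulators of the G1/S transition.

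RNA-seq was performed on LNCaP, a prostate cancer cell line that grows in response to androgen. In the ligand experiment, cells received vehicle, 10 µM enzalutamide (MDV in the sample names) or 10 nM dihydrotestosterone (DHT). Enzalutamide and DHT were given for 4 h or 24 h, which gives 5 conditions with 2 libraries each. The labels give no time for vehicle, and the same vehicle libraries serve both times. In comparisons with vehicle or between the times, treatment and time in culture therefore cannot be fully told apart. In the siRNA experiment, cells were transfected with a control siRNA pool (sicontrol) or a GATA2 siRNA pool (siGATA2) and, from 72 h later on, were given either vehicle or enzalutamide at 25 µM over 24 h, which gives 4 conditions with 3 libraries each. Enzalutamide is an antiandrogen drug, DHT is the main active androgen of the prostate, and GATA2 is a transcription factor of prostate cells. Cells of all these groups were kept for 3 days in phenol red-free medium with charcoal-stripped serum, which contains little steroid, so that the vehicle cells were androgen-deprived and not androgen-stimulated. Every group is the same cell line, in monoculture and without a transgene.

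Before S phase, the origin recognition complex, CDC6 and CDT1 load the MCM2 to MCM7 helicase onto DNA, and the helicase is then activated by CDC45, the GINS complex and the DBF4-dependent kinase CDC7. Synthesis follows by the polymerases α, δ and ε with the clamp PCNA, on deoxynucleotides that ribonucleotide reductase and thymidylate synthase supply. Most of these genes are transcribed in late G1 by E2F factors, which cyclin E with CDK2 releases from the RB proteins. In androgen-dependent prostate cancer cells, androgen is known to promote the passage from G1 to S phase.

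The ligand libraries held 38894876 to 59985287 estimated counts. For the siRNA libraries only RPKM values (reads scaled by transcript length and by the mapped reads of the library) were used, and their depth is unknown. GATA2, the targeted gene, was at 77.0, 83.8 and 86.1 RPKM with sicontrol and vehicle and at 46.6, 53.4 and 54.3 RPKM with siGATA2 and vehicle. With enzalutamide it was at 128, 128 and 132 RPKM in sicontrol cells and at 60.1, 61.5 and 64.7 RPKM in siGATA2 cells, so that the targeted transcript was lower in all siGATA2 libraries but still present. The luminal prostate markers KLK3, FOLH1, HOXB13, KRT8 and KRT18 were present in all 12 siRNA libraries, each at 17.6 RPKM or more. Of 12 markers of other cell types, KRT5, TP63, PTPRC, CD3E, COL1A2, PECAM1 and CDH5 stayed at or below 0.0387 RPKM and KRT14 at or below 0.113 RPKM, while COL1A1 (9.62 to 16.3 RPKM), CD68 (3.54 to 12.2 RPKM), PDGFRB (0.207 to 0.453 RPKM) and VWF (0.362 to 1.25 RPKM) were detected. One vehicle sample of the ligand experiment is the sum of 3 columns with the same replicate number, which differ in the start of their names. A chi-square of the count differences, averaged over genes, was 1.53 to 1.56 between these 3 columns. Between them and the other vehicle column it was 3.56 to 3.74. What the 3 starts stand for is not given in the sources used here. Both enzalutamide 4 h libraries have one of these starts, both enzalutamide 24 h libraries another, and both DHT 4 h libraries the third, whereas the DHT 24 h libraries have different ones.

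Promoters were taken from RefSeq (GRCh38.p14), as the 250 bases before and the 50 bases after each annotated start. An entry was matched for 41 of the 49 members, and the first entry was used for the 9 members with several. An E2F site, searched on both strands as TTTCCCGC, TTTCGCGC, TTTGCCGC or TTTGGCGC, was found in 20 of these 41 promoters (48.8%), against 1164 of all 35116 promoters in the table (3.31%). Counting any entry of a gene, a site was found for 22 of the 41 members (53.7%) and for 1090 of 27305 genes (3.99%). TTTGGCGC on one strand and TTTCGCGC on the other can overlap in the same stretch of DNA. The letters CCAAT, on either strand, were found in 22 of the 41 (53.7%) and in 34.6% of all promoters, and 11 members held both motifs. By role, an E2F site was found in 6 of 9 licensing promoters, 3 of 7 of helicase assembly and firing, 2 of 6 of the clamp and its loader, 4 of 7 of the polymerases and primase, 1 of 3 of flap and single-strand proteins, 1 of 4 of nucleotide supply and 3 of 5 of the G1/S regulators. The members were picked as known replication and E2F genes, so these shares describe the list and do not test it.

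The sequences below show this feature for 5 members whose levels are described in the following paragraphs, each as 44 bases of the gene's own strand, 5′ to 3′, with every E2F match in capitals. MCM7 is at chr7:100101559-100101602, PCNA at chr20:5126656-5126699, E2F1 at chr20:33686393-33686436, E2F2 at chr1:23531250-23531293 and CDC25A at chr3:48188436-48188479. All are on the minus strand of GRCh38.p14 and upstream of the start of the RefSeq entry used. In the GENCODE annotation the MCM7 window lies inside the gene, and the E2F1 window reaches into it.
MCM7: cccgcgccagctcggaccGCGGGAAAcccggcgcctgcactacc
PCNA: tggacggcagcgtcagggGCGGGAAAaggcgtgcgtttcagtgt
E2F1: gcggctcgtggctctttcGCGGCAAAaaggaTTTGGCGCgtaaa
E2F2: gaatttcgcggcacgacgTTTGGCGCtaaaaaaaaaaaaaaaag
CDC25A: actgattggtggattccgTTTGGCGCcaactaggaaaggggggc
The MCM7, PCNA and E2F1 windows carry the match on the opposite strand, and the E2F1 window carries a second one on the gene's strand. No match in a window says only that these letters are absent there.

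The whole set was lower after 24 h of enzalutamide. All 49 members fell against vehicle (edgeR quasi-likelihood test, adjusted p under 0.05 over all genes tested), where 17.0% of all tested genes fell, and the median log2 fold change was -1.09 (range -1.93 to -0.23) against 0.015 over all genes. More than 2-fold falls were found for 31 members, and for 1.99% of all tested genes. Levels are given as CPM, counts scaled to library size with TMM factors. The members took 0.308% of all counts in both vehicle libraries, and 0.156% and 0.150% in the enzalutamide 24 h libraries. In bulk RNA, fewer cells in S phase and less RNA of these genes per cell cannot be told apart.

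**Figure D1:**
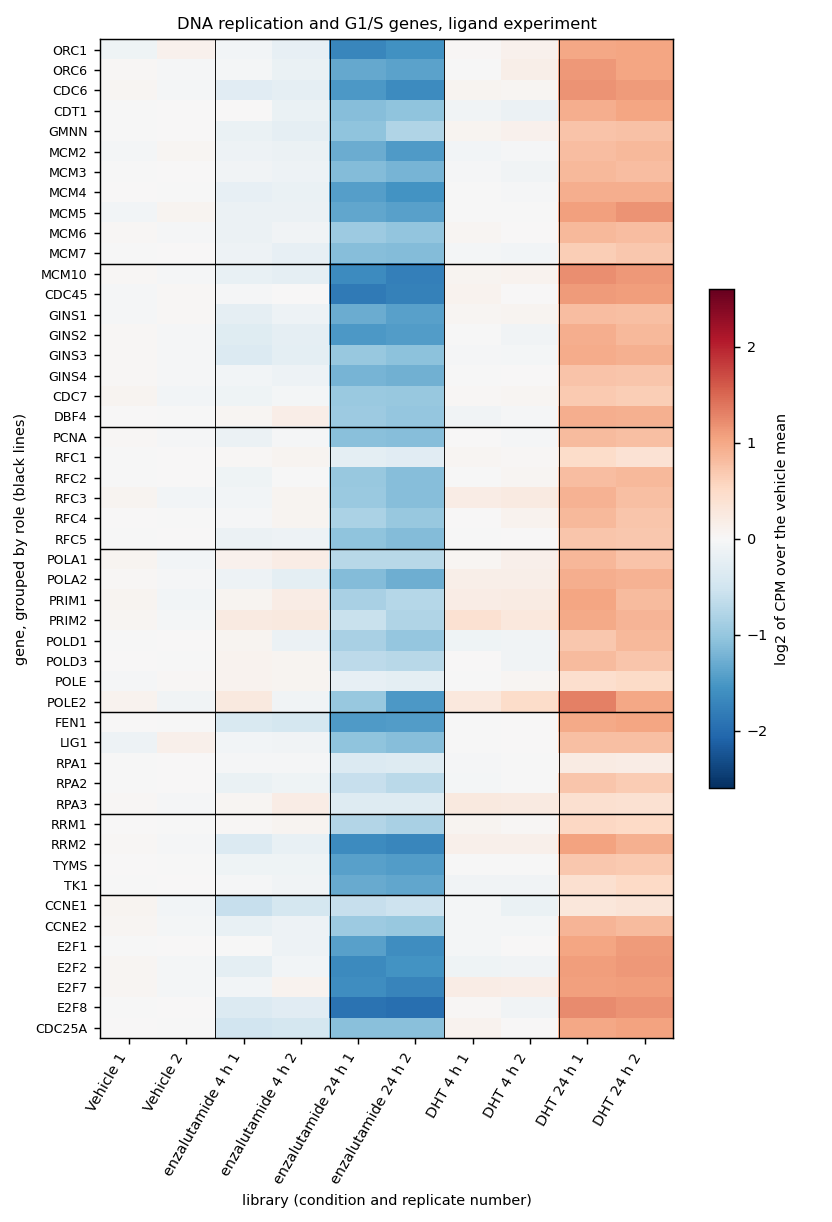
Each row is a member, grouped by role in the order given in the text and separated by black lines, and each column is a library of the ligand experiment. Color gives the log2 of its CPM (counts scaled to library size, with TMM factors) over the vehicle mean. The enzalutamide 24 h columns are blue and the DHT 24 h columns red for all 49 members, and the 4 h columns are close to white, with the deepest blue at enzalutamide 4 h for CCNE1, CDC25A and FEN1.

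Among the licensing genes, all 11 fell after 24 h of enzalutamide, 9 of them more than 2-fold, with a median log2 fold change of -1.36. MCM7, the member of this class with the highest level per length, was at 194 and 199 CPM in vehicle and at 91.1 and 90.2 CPM with enzalutamide. Its log2 fold change was -1.12 ± 0.04 (SE, adjusted p = 3.52e-10). ORC1, the large subunit of the origin recognition complex, changed most in this class. It was at 22.1 and 26 CPM in vehicle and at 7.38 and 8.07 CPM with enzalutamide, a log2 fold change of -1.63 ± 0.09 (adjusted p = 1.19e-08). The 6 helicase subunits ranged from -0.98 for MCM6 to -1.49 for MCM4 on the log2 scale. GMNN, which encodes geminin, the inhibitor of CDT1, fell least in the class (-0.91).

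All 8 genes of helicase assembly and firing fell, 6 of them more than 2-fold. CDC45, a part of the active helicase, was at 22.2 and 22.9 CPM in vehicle and at 6.29 and 6.66 CPM with enzalutamide, a log2 fold change of -1.80 ± 0.06 (adjusted p = 3.52e-10). MCM10, which acts in the activation of the loaded helicase, was at 40.1 and 38.5 CPM in vehicle and at 12.6 and 11.5 CPM with enzalutamide (log2 fold change -1.70 ± 0.06, adjusted p = 3.23e-10). The enzalutamide values of both genes lay far below the vehicle values, with the replicates close together. GINS1, the GINS subunit with the highest level per length, was at 57.2 and 59.0 CPM in vehicle and at 23.7 and 21.8 CPM with enzalutamide (log2 fold change -1.35). The kinase CDC7 and its activator DBF4 both changed by -0.98.

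All 6 genes of the clamp and its loader fell. PCNA was at 179 and 172 CPM in vehicle and at 82.3 and 81.3 CPM with enzalutamide (log2 fold change -1.10 ± 0.04, adjusted p = 7.20e-10), the largest fall of this class. The small loader subunits RFC2 to RFC5 lay between -0.91 and -1.08, whereas RFC1, the large subunit, which was at 147 and 149 CPM in vehicle and 124 and 121 CPM with enzalutamide, changed by -0.28 ± 0.04 (adjusted p = 0.000145). The 8 polymerase and primase genes all fell as well, with a median of -0.76. POLD1, the catalytic subunit of polymerase δ, was at 34.6 and 35.03 CPM in vehicle and at 19.4 and 17.4 CPM with enzalutamide (log2 fold change -0.92). Of the polymerase ε genes, the accessory subunit POLE2 changed by -1.22 ± 0.18 (adjusted p = 0.000205), from 5.32 and 4.72 CPM to 2.54 and 1.78 CPM. The catalytic subunit POLE, at 52.8 and 54.4 CPM in vehicle and 46.5 and 45.1 CPM with enzalutamide, changed by -0.23 ± 0.04 (adjusted p = 0.00175), the smallest fall of the 49 members.

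FEN1, the nuclease that trims Okazaki fragment flaps, was at 82.2 and 81.0 CPM in vehicle and at 29.5 and 29.95 CPM with enzalutamide (log2 fold change -1.46 ± 0.04, adjusted p = 1.67e-10). LIG1, which seals the fragments, changed by -1.07. The 3 subunits of the single-strand binding protein RPA fell less, by -0.35 for RPA1, -0.65 for RPA2 and -0.33 for RPA3. RPA1, with the highest level per length of this class, was at 220 and 223 CPM in vehicle and 172 and 175 CPM with enzalutamide. In the class of nucleotide supply, RRM2, the regulated subunit of ribonucleotide reductase, was at 137 and 131 CPM in vehicle and at 43.0 and 40.9 CPM with enzalutamide (log2 fold change -1.67 ± 0.06, adjusted p = 4.01e-10). Its partner RRM1 changed by -0.81. Thymidylate synthase (TYMS) and thymidine kinase 1 (TK1) changed by -1.42 and -1.33, and TK1 was at 83.9 and 84.4 CPM in vehicle and at 34.2 and 32.8 CPM with enzalutamide.

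All 7 G1/S regulators fell, 5 of them more than 2-fold. E2F8, a repressor E2F that is itself expressed in S phase, was at 11.7 and 11.9 CPM in vehicle and at 3.14 and 3.05 CPM with enzalutamide, and its log2 fold change of -1.93 ± 0.08 (adjusted p = 1.49e-09) was the largest fall of the set. The other repressor, E2F7, changed by -1.66, and the activators E2F1 and E2F2 by -1.50 and -1.61. CDC25A, the phosphatase that activates CDK2, changed by -1.09. The E-type cyclins changed by -0.98 for CCNE2 and -0.57 for CCNE1, which was at 18.1 and 16.5 CPM in vehicle and at 11.4 and 11.96 CPM with enzalutamide.

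**Figure D2:**
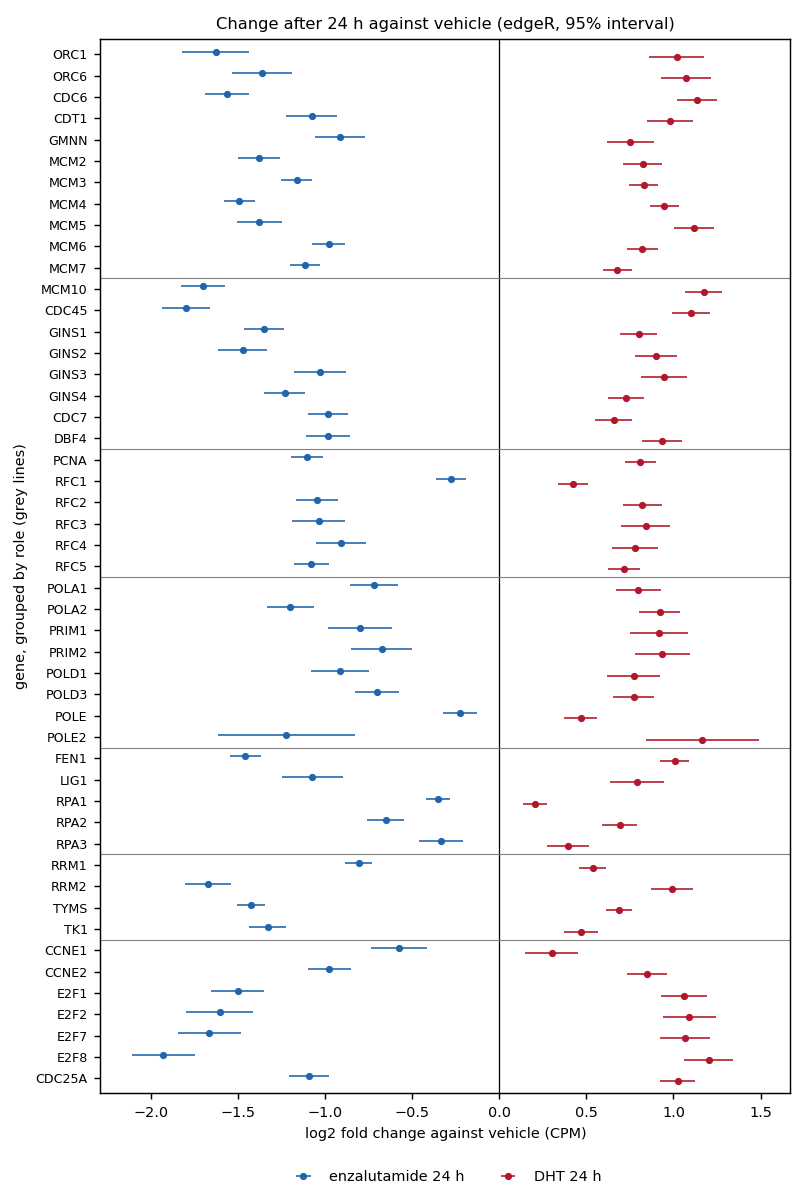
Points give the log2 fold change of each member against vehicle after 24 h (x axis), for enzalutamide in blue and DHT in red, and bars the 95% intervals of the edgeR fit. Members are grouped by role, separated by grey lines. All blue points lie left of 0 and all red points right of 0, and RFC1, POLE, RPA1, RPA3 and CCNE1 lie nearest to 0 on at least one side.

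After 4 h of enzalutamide the changes were small. Against vehicle, 14 of the 49 members fell and none rose (edgeR, adjusted p under 0.05), where 6.68% of all tested genes fell. The median log2 fold change was -0.10 (range -0.54 to 0.23), and none of the members changed 2-fold. CCNE1 fell most, from 18.1 and 16.5 CPM to 11.4 and 12.5 CPM (log2 fold change -0.54 ± 0.07, adjusted p = 0.000513). CDC25A was at 30.7 and 29.98 CPM in vehicle and at 21.5 and 22.0 CPM after 4 h (-0.48 ± 0.05, adjusted p = 5.75e-05), and FEN1 was at 62.3 and 59.5 CPM after 4 h (-0.42 ± 0.04, adjusted p = 2.40e-05). For these 3 genes the vehicle and the 4 h libraries did not overlap. The other 11 that fell were GINS3, E2F8, GINS2, RRM2, CDC6, MCM10, POLA2, MCM4, MCM7, GINS1 and RFC5, with log2 fold changes from -0.31 to -0.15. Of these, RFC5 kept its call in 4, POLA2 in 11 and GINS1 in 13 of 19 alternatives, and the others in 16 to 18. This count rests on the vehicle libraries. Without vehicle replicate 1 it was 5, and with the 4 vehicle columns taken as separate samples 21 members fell and 1 rose. That setting counts 3 columns that may stem from 1 sample as separate replicates. In a fit of the 2 conditions alone the count was 6. With these columns separate and the start of the column names as a term, an alternative chosen after seeing the data, it was 14.

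Between 4 h and 24 h of enzalutamide, 48 members fell (12.9% of all tested genes fell), with a median log2 fold change of -1.004. CDC45 (-1.79), E2F7 (-1.67) and E2F8 (-1.62) fell most. CCNE1 was the member that did not pass the test. Its log2 fold change between the times was -0.03 ± 0.08 (adjusted p = 0.783), so that its difference from vehicle at 24 h was of nearly the same size as at 4 h.

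The set was higher after 24 h of DHT. At 24 h all 49 members were higher than in vehicle (edgeR, adjusted p under 0.05), where 26.9% of all tested genes rose, with a median log2 fold change of 0.83 (range 0.21 to 1.20). More than 2-fold rises were found for 13 members, and for 2.08% of all tested genes. The members' share of all counts was 0.506% and 0.502% with DHT at 24 h. These comparisons share their vehicle libraries with those of enzalutamide, so the values are set side by side and their likeness was not tested.

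E2F8 rose most with DHT at 24 h, to 27.7 and 26.4 CPM from 11.7 and 11.9 CPM in vehicle (log2 fold change 1.20 ± 0.06, adjusted p = 8.28e-09). MCM10 was at 91.0 and 86.3 CPM (1.17 ± 0.05, adjusted p = 9.03e-10). POLE2 was at 12.4 and 10.1 CPM (1.17 ± 0.15, adjusted p = 2.70e-05). In each of these genes both DHT values exceeded both vehicle values. The medians by role were 1.06 for the G1/S regulators, 0.95 for licensing, 0.92 for helicase assembly and firing, 0.86 for the polymerases and primase, 0.79 for the clamp and its loader, 0.69 for flap and single-strand proteins and 0.61 for nucleotide supply. CDC6, the licensing factor that fell by 1.56 on the log2 scale with enzalutamide, rose by 1.13 with DHT. TK1 changed by -1.33 with enzalutamide and by 0.47 with DHT, when it was at 112 and 121 CPM. RPA1 rose least (0.21 ± 0.03, adjusted p = 0.000112), followed by CCNE1 (0.30 ± 0.07, adjusted p = 0.00296), which was at 21.2 and 21.8 CPM.

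At 4 h of DHT the median log2 fold change of the members was 0.005. Of the members 2 (4.08%) rose and none fell, no larger a share than the 4.66% of all tested genes that rose. They were PRIM2, the large primase subunit, at 15.6 and 14.5 CPM in vehicle and 19.8 and 18.3 CPM with DHT (0.34 ± 0.07, adjusted p = 0.0136), and RPA3, at 22.3 and 21.4 CPM in vehicle and 26.1 and 25.7 CPM with DHT (0.24 ± 0.06, adjusted p = 0.0167). Neither call held when vehicle replicate 2 or DHT 4 h replicate 1 was left out, and without DHT 4 h replicate 2 the count was 1. Without the filter on low counts, or with the 2 conditions alone, it was 4. At the same time point the androgen-responsive gene TMPRSS2 was higher than in vehicle by 2.55 on the log2 scale (edgeR, adjusted p = 1.15e-13). From 4 h to 24 h of DHT all 49 members rose (26.3% of all tested genes rose), with a median of 0.80 and with E2F8 (1.22), E2F2 (1.19) and MCM5 (1.13) first. RPA3 rose least between these times (0.15 ± 0.05, edgeR, adjusted p = 0.0306), and its call held in 11 of 19 alternatives.

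Other genes of the pathway that are not in the set were counted from fixed lists. After 24 h of enzalutamide 25 of 28 other replication genes fell and none rose (median log2 fold change -0.70), led by the checkpoint mediator CLSPN (-1.77), the histone chaperone ASF1B (-1.66), the origin-firing factor TICRR (-1.52) and MCM8 (-1.12). Of 10 other genes of nucleotide supply 6 fell and 2 rose, where 16.4% of all tested genes rose. The kinase DTYMK (-0.79) fell, whereas the mitochondrial kinase TK2 (0.26) and RRM2B (0.17), the alternative small subunit of ribonucleotide reductase, rose. Of 19 other genes of G1/S control 11 fell, and 3 rose (15.8%), a share near that over all genes. CDK2 (-1.04), the CDK inhibitor CDKN2C (-0.95) and RBL1 (-0.72) fell, and CDK6 (0.64) rose. All 10 genes of the G2/M reference list also fell (median -1.27), with CDK1 (-1.49) and CCNA2 (-1.44) first. With DHT at 24 h, 24 of the 28 other replication genes rose and 1 fell, 6 of 10 of nucleotide supply rose and 2 fell, 12 of 19 of G1/S control rose and 4 fell (21.1%), and all 10 G2/M genes rose. Over all tested genes 23.2% fell, so that the falls in these lists were no more frequent than over all genes. RRM2B (-0.22) was again opposite to the members. CDK6 rose with DHT (1.18) as it did with enzalutamide.

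In sicontrol cells, 25 µM enzalutamide for 24 h lowered all 49 members against vehicle (limma on log2(RPKM + 0.1), adjusted p under 0.05), where 24.4% of all tested genes fell. The median log2 fold change was -1.39 (range -2.60 to -0.25), and 35 members fell more than 2-fold, against 1.53% of all tested genes. The summed level of the members was 1023, 1024 and 1033 RPKM with vehicle and 424, 436 and 461 RPKM with enzalutamide. The dose, the transfection and the unit differ from the ligand experiment, so the values of the 2 experiments are given side by side without a test. Over the 49 members the log2 fold changes of the 2 experiments, which share no library, had a Pearson r of 0.822 and a Spearman rho of 0.817. These are correlations across genes, which are not independent replicates. Of the other lists, 25 of 28 replication genes fell and 1 rose, 7 of 10 of nucleotide supply fell and 2 rose, 12 of 20 of G1/S control fell and 5 rose, and all 10 G2/M genes fell, where 17.7% of all tested genes rose.

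**Figure D3:**
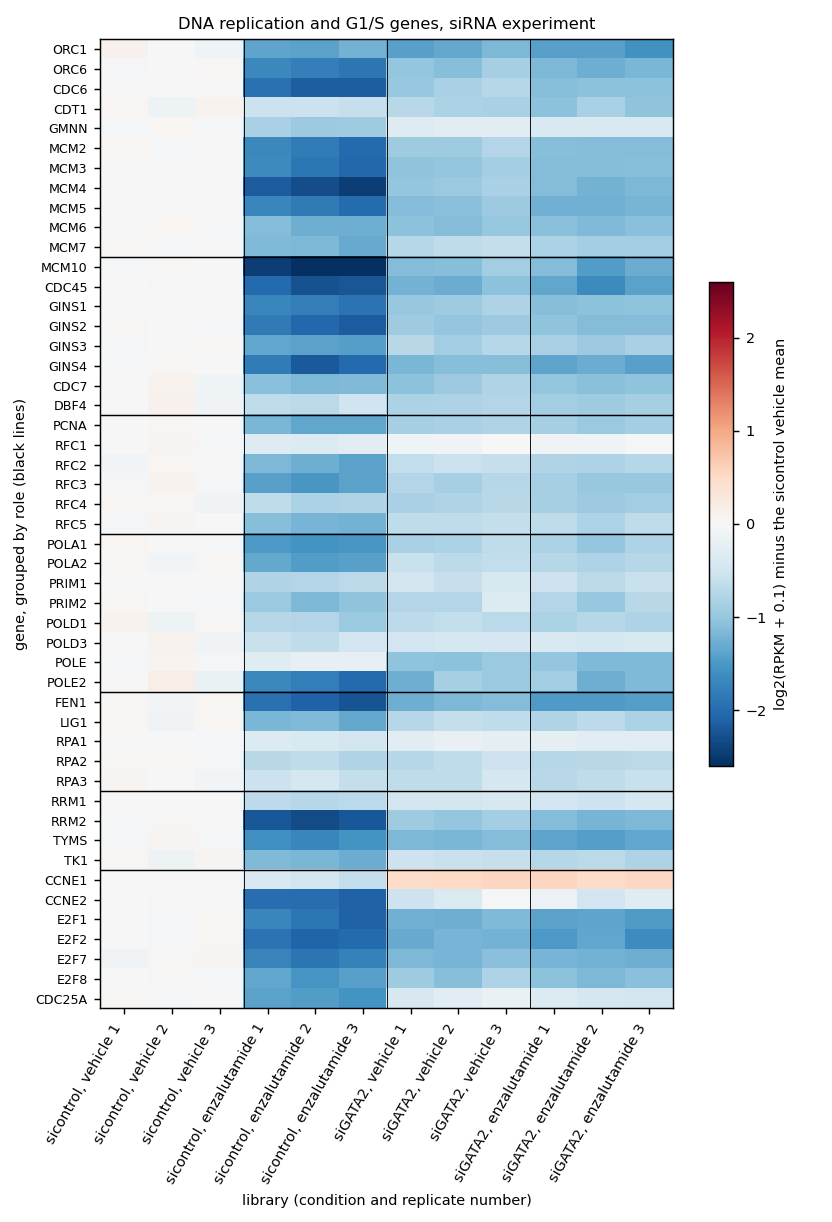
Each row is a member, grouped by role and separated by black lines, and each column is a library of the siRNA experiment. Color gives log2(RPKM + 0.1) minus the mean of the sicontrol vehicle libraries. The sicontrol enzalutamide columns hold the deepest blue in most rows, where the siGATA2 columns are paler. The siGATA2 columns are alike with vehicle and with enzalutamide, and CCNE1 is the one row that is clearly red in them. In CDT1, RFC4, POLE, RPA3 and DBF4 both siGATA2 means lie below the mean of sicontrol with enzalutamide. For RFC4 and RPA3 the siGATA2 vehicle mean lies below it by less than the spread.

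MCM10 fell most in sicontrol cells. It was at 8.00, 8.31 and 8.07 RPKM with vehicle and at 1.41, 1.12 and 1.26 RPKM with enzalutamide, which is 15.5% of the vehicle mean (log2 fold change -2.60 ± 0.10, adjusted p = 3.13e-08). MCM4, a helicase subunit, was at 34.8, 34.6 and 34.1 RPKM with vehicle and at 7.68, 6.92 and 6.28 RPKM with enzalutamide (-2.30 ± 0.06, adjusted p = 6.81e-09). RRM2 was at 21.4, 22.7 and 22.3 RPKM with vehicle and at 4.73, 4.35 and 4.73 RPKM with enzalutamide (-2.24 ± 0.04, adjusted p = 9.44e-10). In all 3 genes the groups were far apart relative to their spread. By role the medians were -1.90 for helicase assembly and firing, -1.80 for the G1/S regulators, -1.78 for licensing, -1.41 for nucleotide supply, -1.23 for the clamp and its loader, -0.94 for the polymerases and primase and -0.72 for flap and single-strand proteins. The smallest falls were those of POLE (-0.25 ± 0.05, adjusted p = 0.00351), RFC1 (-0.33), RPA1 (-0.41), CCNE1 (-0.51) and RPA3 (-0.54). The same 5 genes had the smallest falls with 10 µM enzalutamide at 24 h.

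Since RPKM is per length, levels can be compared between genes on this scale. In sicontrol vehicle cells TK1 had the highest level (94.0 ± 7.06 RPKM, SD, n = 3), followed by PCNA (78.3 ± 1.61), RPA1 (62.2 ± 1.00) and MCM7 (53.8 ± 1.60). The subunits of the MCM2 to MCM7 helicase were not at one level. MCM2 (46.6 ± 1.68 RPKM) and MCM3 (46.4 ± 0.295 RPKM) did not differ beyond their spread and lay below MCM7, with MCM4 (34.5 ± 0.384), MCM5 (24.7 ± 0.134) and MCM6 (19.5 ± 0.684) lower in this order. The lowest levels were those of E2F7 (3.06 ± 0.180 RPKM), POLE2 (3.04 ± 0.374), E2F8 (2.61 ± 0.0514) and E2F2 (1.99 ± 0.0708). The first pair did not differ beyond its spread.

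In siGATA2 cells none of the 49 members passed the test for a difference between enzalutamide and vehicle (limma), where 0.412% of all tested genes were called. At an unadjusted p under 0.05 there were 22 members, where 10.8% of all tested genes were under it. The smallest adjusted p of a member was 0.0561, for RRM2 and TYMS. The count became 2 without sicontrol enzalutamide replicate 2, which enters through the shared spread, 2 with a mean RPKM of at least 1, and 1 without sicontrol vehicle replicate 2 or sicontrol enzalutamide replicate 3. The log2 fold changes had a median of -0.13 and lay between -0.27 and 0.04, and 47 of the 49 were below 0. The 95% intervals of the members lay between -0.46 and 0.25, so that falls of 2-fold lay outside all of them. MCM10 was at 3.64, 3.73 and 4.31 RPKM with vehicle and at 3.67, 2.89 and 3.28 RPKM with enzalutamide, and the groups overlapped. RRM2 was at 11.7, 11 and 11.9 RPKM with vehicle and at 10.1, 9.57 and 9.74 RPKM with enzalutamide, which did not overlap (log2 fold change -0.23 ± 0.04). None of the other replication, nucleotide supply or G1/S control genes was called in siGATA2 cells. Of the 10 G2/M genes all were below 0 and 2 were called, where 0.191% of all tested genes fell. These were PLK1 (-0.26, limma, adjusted p = 0.012) and NUSAP1 (-0.17, adjusted p = 0.038).

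The difference between these responses was tested as an interaction. It was above 0, which means a smaller fall with enzalutamide in siGATA2 than in sicontrol cells, for 48 of the 49 members (limma, adjusted p under 0.05), where it was above 0 for 15.0% of all tested genes. The median was 1.27 on the log2 scale. MCM10 (2.36 ± 0.14, adjusted p = 2.56e-06), MCM4 (2.05 ± 0.09, adjusted p = 8.74e-07) and CCNE2 (2.02 ± 0.16, adjusted p = 1.91e-05) had the largest values. POLE did not pass the test (0.17 ± 0.08, adjusted p = 0.132). Among the other lists, the interaction was above 0 for 25 of 28 replication genes, 7 of 10 genes of nucleotide supply, 12 of 20 of G1/S control and 10 of 10 G2/M genes. It was below 0 for none of the replication and G2/M genes, for 3 of G1/S control and for 2 of nucleotide supply, TK2 (-0.30) and RRM2B (-0.27), where it was below 0 for 10.8% of all tested genes. The CDK inhibitors CDKN1A (-0.91) and CDKN1B (-0.67) had the largest values below 0. In sicontrol cells CDKN1A and CDKN1B rose with enzalutamide by 0.97 and 0.68 on the log2 scale. With 10 µM enzalutamide at 24 h in the ligand experiment they changed by 0.12 and 0.09. At that time CDKN1B did not pass the test (edgeR, adjusted p = 0.0733). At 4 h of 10 µM enzalutamide they were higher than in vehicle by 0.30 and 0.27 (edgeR, adjusted p = 0.000175 and 0.000399). With DHT at 24 h they changed by -0.29 and -0.30.

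**Figure D4:**
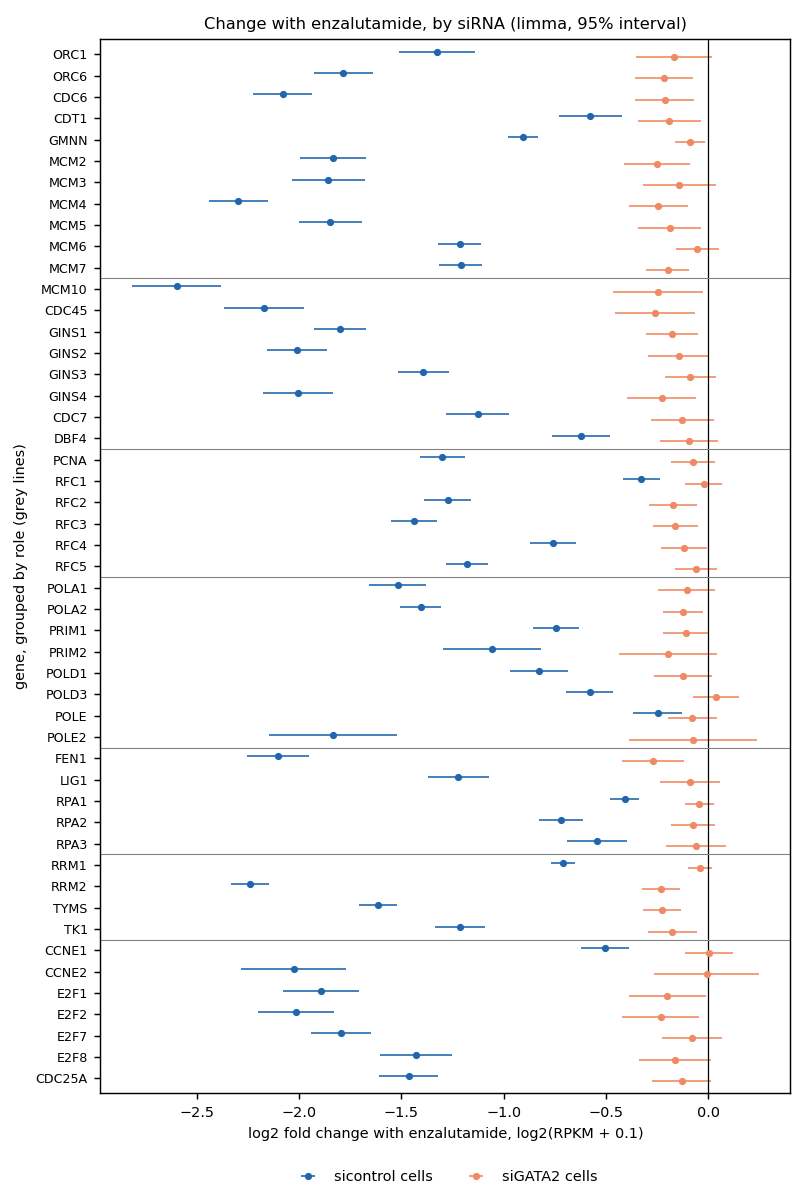
Points give the log2 fold change of each member with 25 µM enzalutamide against vehicle (x axis), in sicontrol cells in blue and in siGATA2 cells in orange, and bars the 95% intervals of the limma fit. Members are grouped by role, separated by grey lines. The blue points range from -2.60 to -0.25, while the orange points lie between -0.27 and 0.04.

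With vehicle alone, siGATA2 cells had lower levels than sicontrol cells of 47 of the 49 members, where 31.4% of all tested genes were lower. One member was higher, where 24.2% of all tested genes were higher. The median log2 difference was -0.80. The members summed to 614, 621 and 652 RPKM in siGATA2 vehicle libraries. ORC1 was at 6.69, 6.23 and 5.71 RPKM in sicontrol and at 2.26, 2.42 and 2.71 RPKM in siGATA2 cells (log2 difference -1.30 ± 0.08, adjusted p = 2.81e-07). E2F2 was at 2.01, 1.92 and 2.05 RPKM in sicontrol and at 0.738, 0.802 and 0.791 RPKM in siGATA2 cells (-1.26 ± 0.08, adjusted p = 3.89e-07). E2F1 was at 16.0, 15.2 and 16.3 RPKM in sicontrol and at 6.59, 6.54 and 7.13 RPKM in siGATA2 cells (-1.22 ± 0.08, adjusted p = 5.09e-07). In these 3 genes the siGATA2 values stayed below the lowest sicontrol value. RFC1 was the member that did not pass the test (-0.07 ± 0.04, adjusted p = 0.201). Of the other lists 24 of 28 replication genes were lower and 2 higher, with ASF1B (-2.55) and DSCC1 (-1.57) first, and all 10 G2/M genes were lower (median -0.59). Of 10 genes of nucleotide supply 7 were lower and 1 higher, and of 20 of G1/S control 12 were lower and 4 higher, with SKP2 (-0.95) lowest and the CDK inhibitors CDKN1B (0.71) and CDKN1A (0.58) highest.

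CCNE1 was the member that was higher. It was at 10.2, 10.3 and 10.4 RPKM with sicontrol and vehicle, at 7.79, 7.35 and 6.56 RPKM with sicontrol and enzalutamide, at 14.4, 14.7 and 15.3 RPKM with siGATA2 and vehicle, and at 15.2, 14.3 and 15.0 RPKM with siGATA2 and enzalutamide. The log2 difference of siGATA2 from sicontrol was 0.52 ± 0.05 with vehicle (adjusted p = 9.91e-06) and 1.03 ± 0.05 with enzalutamide (adjusted p = 5.40e-08). The siGATA2 values lay above all sicontrol values. CCNE2, the other E-type cyclin, was at 7.76, 7.98 and 7.77 RPKM with sicontrol and vehicle and at 1.91, 1.90 and 1.74 RPKM with sicontrol and enzalutamide. In siGATA2 cells it was at 5.38, 5.997 and 7.62 RPKM with vehicle and at 6.998, 5.55 and 6.24 RPKM with enzalutamide, and its difference from sicontrol with vehicle was -0.32 ± 0.12 (adjusted p = 0.0374). This call held in 11 of 20 alternatives, with an adjusted p of up to 0.142. Its spread in siGATA2 cells was wide, and vehicle and enzalutamide overlapped there.

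**Figure D5:**
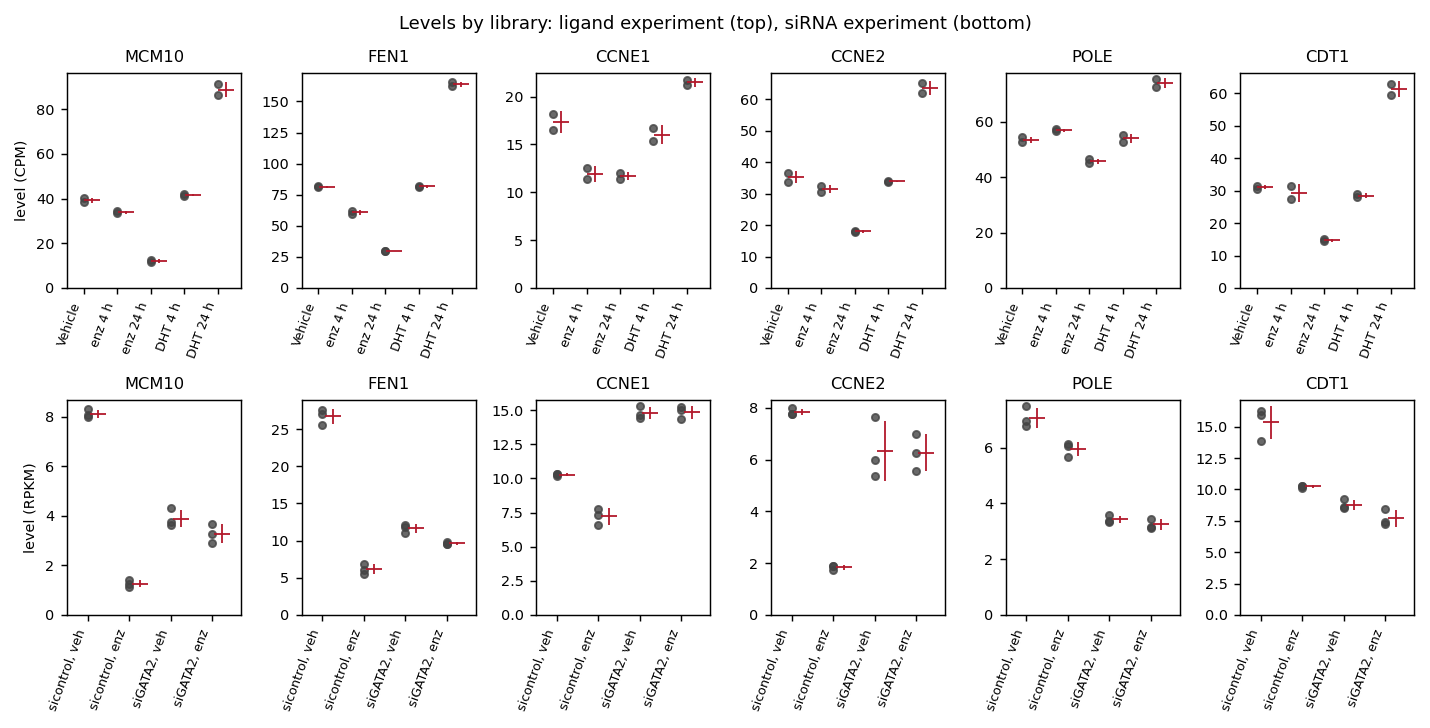
Levels of MCM10, FEN1, CCNE1, CCNE2, POLE and CDT1 in each library, in CPM for the ligand experiment (top, 2 libraries a condition) and in RPKM for the siRNA experiment (bottom, 3 libraries a condition), on linear axes from 0. Dots are libraries, and red marks give the mean with the SD (veh, vehicle, and enz, enzalutamide). CCNE1 is highest with siGATA2, at 14.3 to 15.3 RPKM, and POLE and CDT1 are lowest there, while MCM10, FEN1 and CCNE2 are lowest with sicontrol and enzalutamide.

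With enzalutamide in both, siGATA2 cells had higher levels than sicontrol cells of 38 members and lower levels of 4, where 26.3% of all tested genes were higher and 28.1% lower. The median log2 difference was 0.49, and the members summed to 565, 576 and 582 RPKM. CCNE2 differed most (1.70 ± 0.12, adjusted p = 4.39e-07), followed by MCM10 (1.31 ± 0.10, adjusted p = 9.88e-07) and MCM4 (1.12 ± 0.06, adjusted p = 1.29e-07). The 4 members that were lower were POLE, CDT1, DBF4 and RFC4. POLE was at 5.67, 6.12 and 6.04 RPKM in sicontrol cells with enzalutamide and at 3.46, 3.15 and 3.13 RPKM in siGATA2 cells with enzalutamide (-0.85 ± 0.05, adjusted p = 2.26e-07). CDT1, the licensing factor that geminin inhibits, was at 10.3, 10.3 and 10.1 RPKM and at 7.24, 8.44 and 7.40 RPKM (-0.41 ± 0.07, adjusted p = 0.000429). DBF4 was at 2.67, 2.58 and 2.97 RPKM and at 2.25, 2.19 and 2.32 RPKM (-0.27 ± 0.06, adjusted p = 0.00364). In these genes the siGATA2 libraries lay below the sicontrol libraries. RFC4 differed by -0.14 ± 0.05 (adjusted p = 0.0304), at 16.8, 15.1 and 15.5 RPKM against 14.7, 13.9 and 14.2 RPKM. Its call was lost with the libraries scaled to an equal median (-0.11, adjusted p = 0.0799) and without sicontrol enzalutamide replicate 1 or siGATA2 enzalutamide replicates 2 or 3. ORC1, MCM6, CDC7, PRIM2, POLD1, RPA2 and RPA3 did not pass the test. Of the other lists, 16 of 28 replication genes were higher and 4 lower, 4 of 10 of nucleotide supply higher and 3 lower, 7 of 20 of G1/S control higher and 9 lower, and 5 of 10 G2/M genes higher and 3 lower.

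The order of the 4 group means was the same in 40 members, from sicontrol with vehicle over siGATA2 with vehicle and siGATA2 with enzalutamide to sicontrol with enzalutamide as the lowest. The 2 siGATA2 conditions are neighbors in that order, and no member passed the test between them. As a share of the sicontrol vehicle mean, the median member was at 37.0% (15.5% to 84.0%) with sicontrol and enzalutamide, at 56.4% (39.0% to 144%) with siGATA2 and vehicle, and at 51.6% (32.5% to 144%) with siGATA2 and enzalutamide. CDT1, RFC4, POLE, RPA3 and DBF4 followed another order, with both siGATA2 means below the mean of sicontrol with enzalutamide. For RFC4 and RPA3 the siGATA2 vehicle mean did not differ from that mean beyond the spread. RFC4 was at 15.5 ± 0.668 RPKM (SD) with siGATA2 and vehicle and 15.8 ± 0.896 RPKM with sicontrol and enzalutamide. RPA3 was at 7.45 ± 0.605 and 7.72 ± 0.446 RPKM. In POLE the shares were 84.0% with sicontrol and enzalutamide and 48.5% with siGATA2 and vehicle. In FEN1, which followed the common order, they were 23.1% and 43.6%, and siGATA2 with enzalutamide was at 36%.

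The changes of members with and without an E2F site in the promoter window are given side by side. After 24 h of enzalutamide the median log2 fold change was -1.14 in the 20 members with a site (range -1.61 to -0.23) and -0.98 in the 21 without (range -1.80 to -0.28). With DHT at 24 h the medians were 0.84 and 0.82. In sicontrol cells with 25 µM enzalutamide they were -1.49 and -1.13, and for siGATA2 against sicontrol with vehicle -0.87 and -0.67. POLE, which fell least with enzalutamide, holds a site, and CDC45, RRM2 and MCM10 hold none in the window used. No test was made of these differences.

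Reads of some members may be shared with other genes. In the GENCODE annotation (GRCh38), 39.1% of the exonic bases of TYMS overlap ENOSF1 and 37.0% of those of CCNE2 overlap INTS8, both on the opposite strand. Antisense transcripts overlap 22.7% of the exonic bases of MCM2, 21.2% of GINS4 and 10.9% of GINS3. Other gene models on the same strand, where strand cannot separate reads, overlap 35.1% of POLA2, 20.2% of RRM2 and 14.9% of PRIM1. The other members overlap another gene at fewer than 10% of their exonic bases. The libraries were directional, but whether strand was used in counting is not given in the sources used here, so the values of these 8 members are uncertain to that extent.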

How the data were processed

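Poly(A) RNA was sequenced from LNCaP cells. Per the labels and the study's methods, the authors aligned reads to hg19 with TopHat2 2.0 and quantified genes in Partek. For the ligand experiment they deposited estimated counts per gene (expected counts, without normalization), which were rounded here. For the siRNA experiment the deposited values are RPKM, normalized by the authors to transcript length and mapped reads. No columns of the authors' own comparisons were used, and 0 columns of sample values were left out. Ligand counts were tested with edgeR 4.0.16 (R 4.3.3; quasi-likelihood test, TMM factors, default filter on low counts) in 1 model of 5 conditions and 10 libraries, with genes missing from a table set to 0. Vehicle columns sharing a replicate number in their names (3 of 4) were added up to 1 sample, although the labels number 4 vehicle replicates. For RPKM, log2(RPKM + 0.1) of genes with a value above 0 in 3 or more libraries entered limma 3.58.1 (eBayes with trend), in 1 model of 4 conditions and 12 libraries. Fold changes on that scale understate changes of low genes. Calls used a Benjamini-Hochberg adjusted p under 0.05 over all genes tested, and 2-fold counts a fold above 2 with an unadjusted p under 0.05. The labels call the samples biological replicates without naming separate cultures, so p-values measure the spread between these samples. Steps were tested on simulated data. DESeq2 1.42.0 and other settings served as alternatives. Figures were drawn with matplotlib.

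The members and lists were chosen with earlier results of these data known. Full values were given for members chosen by rule. These are, in each role, the member with the highest mean RPKM and the one with the largest change with enzalutamide at 24 h, in each comparison the 3 largest rises and falls among those called, and every member called against the majority. From each other list up to 4 called genes of largest change were named, besides RRM2B with DHT and the CDK inhibitors, which were chosen after their values were seen, as were further members given by their log2 fold change. Some genes of these lists are not reported here by name. The alternative with the start of the column names as a term was added after seeing the data. Same-numbered libraries deviated together, with correlations over 0.1 in all 3 pairs (0.113, 0.241 and 0.148), between sicontrol and siGATA2 with enzalutamide, and in none of the other siRNA pairs of conditions.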

Additional observations from a re-analysis of the deposited data

Results flagged for a closer look

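The response to enzalutamide differed between siGATA2 and sicontrol cells, by the interaction term of the limma model, for 48 of the 49 members, and the 3 largest differences were those of MCM10 (2.36 on the log2 scale), MCM4 (2.05) and CCNE2 (2.02). With enzalutamide the difference from vehicle changed between 4 h and 24 h for 48 members, all except CCNE1, and with DHT for all 49 members (edgeR). The DHT call of RPA3 held in 11 of 19 alternatives. In these time comparisons the vehicle libraries are shared, and the test is that of 24 h against 4 h itself.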

How the results depend on the processing

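The counts of members called were within 1.5 times of the reported ones under all alternatives that could be run, except for the comparisons at 4 h and for enzalutamide in siGATA2 cells. For enzalutamide at 4 h the count was 22 with 4 separate vehicle columns and 6 with the 2 conditions compared fitted alone, and leaving out single libraries gave 5 to 14. For DHT at 4 h it was 4 without the filter on low counts and 4 with the 2 conditions alone, and 0 to 3 without single libraries. For enzalutamide in siGATA2 cells it was 2 with a mean RPKM of at least 1, and 0 to 2 without single libraries. The cause of these differences was not tested. Leaving out single libraries gave 49 to 49 members for enzalutamide at 24 h, 49 to 49 for DHT at 24 h, 48 to 48 for enzalutamide at 24 h against 4 h, 48 to 49 for DHT at 24 h against 4 h, 49 to 49 for enzalutamide in sicontrol cells, 47 to 49 for siGATA2 with vehicle, 39 to 43 for siGATA2 with enzalutamide and 48 to 48 for the interaction. With the replicate number as a replicate block the counts were 14, 49, 2, 49, 48 and 49 in the ligand comparisons and 49, 0, 47, 42 and 48 in the siRNA comparisons, so that pairing moved none by over 1.5 times. Of the members named by rule, 649 values kept their side of the threshold, 10 lost their call (those of PRIM2, RPA3 and RFC4) and none changed direction. Outside that rule, the calls of RFC5, POLA2, GINS1 and CCNE2 that were lost in part are given beside their values. So is the call of RPA3 between 4 h and 24 h of DHT. The interaction could not be fitted with 2 conditions alone, since it needs 4. With 2 libraries a condition the ligand tests rest on an estimate of the spread shared by 5 conditions, and for the siRNA libraries the depth is unknown.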
